A study of Mus musculus with 12 samples.

Results

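Olfactory receptors were read in peritoneal macrophages (PMs) as a family that such cells are not known to need, and their signals give a measure of what dim probe sets do on these arrays. The members were chosen by name alone: every probe set whose platform annotation gives 1 gene symbol and whose symbol starts with *Olfr* (no symbol in the newer style, *Or* and a digit, was found). The rule found 44 probe sets of 39 genes, out of 45037 probe sets on the array. A further 3 probe sets that the annotation gives to 2 receptors each were left out. Counts of receptors below are counts of the 44 probe sets, so a gene with several can be counted more than once. The 12 arrays fall into 6 groups of 2: PMs given lipofectamine, a scramble control or antagomir-21 (an oligonucleotide that blocks miR-21), each then exposed to exosomes from sensory neurons that overexpressed either a GFP reporter or miR-21. All groups were thus mouse PMs that met a transfection reagent and neuronal exosomes, and none was left without exosomes. The methods describe adherent cells of a peritoneal lavage, so the cultures were enriched for macrophages and not sorted. They give 48 hours of culture after transfection for the oligonucleotides, while the lipofectamine groups are named in the labels alone. The methods speak of biological triplicates collected independently for each condition, while the labels give 2 arrays per group and do not say from which cultures or animals they came, so p-values measure the spread between these arrays, which may be technical.

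Olfactory receptors are G protein-coupled receptors of the nose. Each olfactory sensory neuron uses a single receptor gene from a very large repertoire, and the receptor signals through the G protein subunit *Gnal* and the adenylyl cyclase *Adcy3* to a cyclic nucleotide-gated channel. Class I receptors resemble those of fish and lie together in the genome, whereas the larger class II is spread over many clusters. A few receptors also work outside the nose: *Olfr78* in the carotid body, *Olfr16* in sperm, and *Olfr2* in macrophages of the vessel wall.

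The members are a small share of the family. The 39 genes were all found by gene ID in the RefSeq gene table and make up 2.73% of its 1428 olfactory receptor genes, and 33 of them lie next to another receptor gene. Of the 44 probe sets, 43 belong to protein-coding genes and 1 to a transcribed pseudogene, *Olfr75-ps1*. Class I holds 15 probe sets of 11 genes and class II 29 probe sets of 28 genes.

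The stretch before an annotated receptor start is shown for the members with the highest and the lowest mean signal among the 29 genes with a promoter sequence (RefSeq, GRCm38.p6), since the arrays give no sequence of their own. The *Olfr1508* window lies at chr14:52467462-52467711 and the *Olfr49* window at chr14:54282926-54283175, both on the minus strand, and each holds the 250 bases before the start. Lower case is used throughout because none of the motifs searched is in either window.
*Olfr1508*: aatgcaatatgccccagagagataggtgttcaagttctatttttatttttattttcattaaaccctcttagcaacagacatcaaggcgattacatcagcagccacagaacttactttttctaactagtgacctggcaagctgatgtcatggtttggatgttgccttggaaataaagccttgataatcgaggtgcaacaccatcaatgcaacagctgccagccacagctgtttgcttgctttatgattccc
*Olfr49*: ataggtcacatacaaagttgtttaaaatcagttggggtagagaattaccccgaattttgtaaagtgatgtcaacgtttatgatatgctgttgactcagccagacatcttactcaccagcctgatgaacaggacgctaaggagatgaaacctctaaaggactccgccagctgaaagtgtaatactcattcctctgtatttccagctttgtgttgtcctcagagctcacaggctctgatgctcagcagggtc
These windows hold 41.2% and 44% G and C. The 30 windows of the 29 genes had a median of 40.6% (28.4% to 56%), beside 34% over 948 windows of all olfactory receptors and 52.4% over 32851 windows of all genes. The TATA box letters TATAAA, searched on both strands, were in 9 of the 30 windows (30%), in 39.2% of receptor windows and in 12.4% of all windows. The homeodomain letters TAATTA were in 2 of the 30 (6.67%), in 18.0% of receptor windows and in 4.84% of all. The core letters of an Ebf site, CCCNNGGG, were in 1 of the 30 (3.33%), in 2.74% of receptor windows and in 11.8% of all. The last pair of motifs reads the same on both strands, and matches of different motifs could overlap. In 10 of the 30 windows (33.3%) the annotated start was itself an ATG, so that the window precedes the coding sequence and not a known transcript start. This was so for 72.4% of receptor windows and 5.83% of all windows.

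The receptors lay in the lower part of the signal range. Their mean log2 signals over the 12 arrays ran from 4.77 to 8.55, with a median of 6.5 and quartiles of 5.92 and 7.43. Over all 45037 probe sets the range was 3.65 to 18.66, the median 7.53 and the quartiles 6.59 and 8.70. Of the 44 receptor probe sets, 22 had a mean below the lower quartile of all probe sets, 34 had one below the median, 10 had one above it and none had one above the upper quartile. As many as 11 were in the lowest decile, below 5.88. The order of receptors is an order of probe sets, since signals of different probe sets also depend on their probes, and no detection call was used here. In bulk RNA, few cells with a transcript and little of it per cell cannot be told apart.

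**Figure D1:**
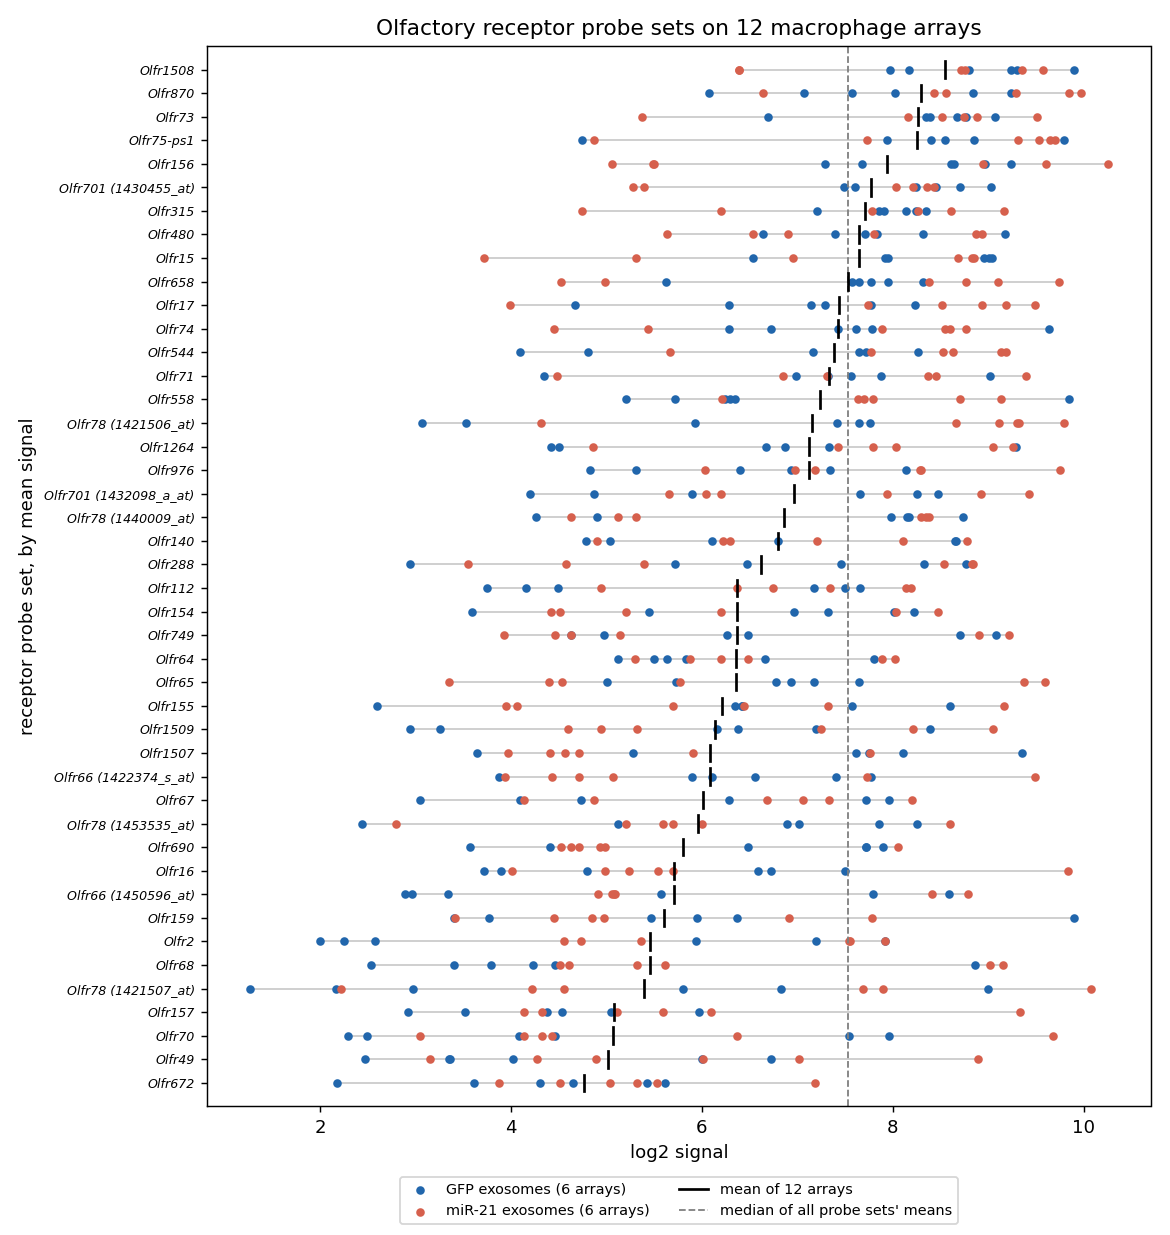
Log2 signal (x axis) of the 44 olfactory receptor probe sets (y axis, ordered by mean) on 12 arrays. Points are single arrays, blue for GFP exosomes and red for miR-21 exosomes, black marks are means of 12 arrays, and the dashed line is the median of all probe sets' means, 7.53. Points of both colours are spread over several log2 units in nearly every row.

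The brightest receptor was *Olfr1508*, a class II gene beside *Olfr1507* and *Olfr1509*, at 8.55 ± 1.15 (SD, n = 12 arrays), with a lowest value of 6.39, a median of 8.78 and a highest of 9.90. Its neighbours had means of 6.09 and 6.14. *Olfr870* was at 8.30 ± 1.25 (SD, n = 12), from 6.08 to 9.97. *Olfr73*, a receptor for eugenol, was at 8.26 ± 1.14 (SD, n = 12), from 5.37 to 9.51, and exceeded its array's median on 10 of 12 arrays, the most of any member. The pseudogene *Olfr75-ps1* had nearly the same mean, 8.26 ± 1.75 (SD, n = 12). *Olfr156*, of a receptor group that is expressed in a patch of the olfactory epithelium, followed at 7.94, and *Olfr701* (1430455_at), *Olfr315* and *Olfr480* at 7.77, 7.71 and 7.65. Differences between these 8 means were smaller than the SD over arrays of any of them.

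The dimmest was *Olfr672*, a class I receptor, at 4.77 ± 1.25 (SD, n = 12), from 2.17 to 7.19. *Olfr49* was at 5.02 ± 1.93 (SD, n = 12), *Olfr70* at 5.07 ± 2.32 (SD, n = 12) and *Olfr157* at 5.08 ± 1.64 (SD, n = 12). One probe set of *Olfr78* (1421507_at) and *Olfr68*, which lies beside the beta-globin genes, completed the 6 lowest at 5.39 and 5.46. Each of these 6 had single arrays above 7, and only *Olfr672* and *Olfr157* had no more than 1. A low mean therefore did not go with a low value on every array.

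Class I probe sets had a median of the means of 6.08 (4.77 to 7.53) and class II one of 6.96 (5.02 to 8.55). The ranges overlapped over most of their length. The receptors known outside the nose were not at the top: *Olfr2* was at 5.46 ± 2.26 (SD, n = 12), *Olfr16* at 5.71 ± 1.75 (SD, n = 12), *Olfr558* at 7.24 ± 1.46 (SD, n = 12) and *Olfr544*, a receptor for azelaic acid, at 7.39 ± 1.67 (SD, n = 12). *Olfr2* never exceeded its array's median, and its values ran from 2.0 to 7.93.

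Spread was the main feature of these probe sets. The SD over 12 arrays was 1.03 to 2.93 log2 units with a median of 1.73, which is 3.33-fold on the linear scale, and 31 of 44 lay above the median of all probe sets, 1.59. The SD within groups, pooled over the 6 groups, had a median of 1.76 (0.69 to 3.14), and 30 of 44 lay above the median of all, 1.52. Removing the group means thus left the receptors' spread as large as it was over all arrays. The most variable were *Olfr78* (1421507_at) with an SD of 2.93, *Olfr78* (1421506_at) with 2.38, *Olfr70* with 2.32, *Olfr68* with 2.29 and *Olfr2* with 2.26. The steadiest were *Olfr64* with 1.03, *Olfr480* with 1.08 and *Olfr73* with 1.14.

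Spread over all probe sets fell with signal, and the receptors lay along that relation. From the lowest to the highest decile of mean signal the median SD over arrays of all probe sets was 1.81, 1.87, 1.83, 1.78, 1.70, 1.60, 1.45, 1.26, 0.854 and 0.647. The receptors numbered 11, 11, 1, 5, 6, 5, 4 and 1 in the first 8 deciles and 0 in the last pair. In the lowest decile their median SD was 1.93, in the second 1.92, in the fifth 1.62, in the sixth 1.21 and in the seventh 1.5. The receptors' spread thus lay near that of all probe sets of like signal, with the sixth decile the farthest below it among those with 4 or more receptors.

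**Figure D2:**
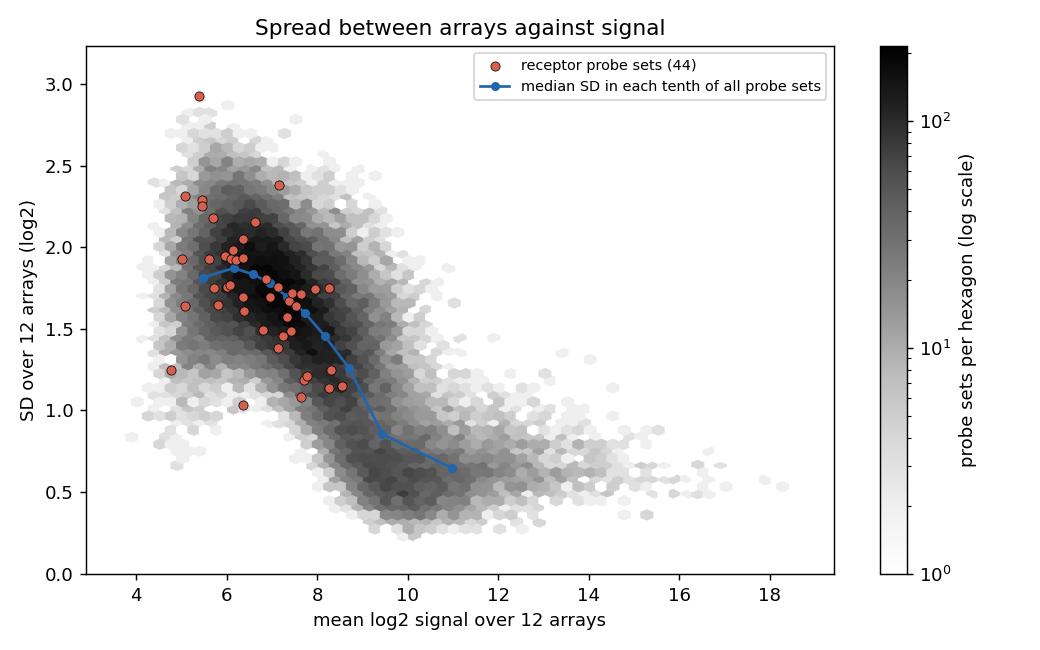
SD over 12 arrays (y axis, log2) against mean log2 signal (x axis) of all 45037 probe sets, as hexagons shaded by their number on a log scale, with the 44 receptors as red points. The blue line joins the median SD of each decile of signal, which is 1.81 in the lowest and 0.647 in the highest, and the receptors sit on its left part.

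The 528 single receptor values ran from 1.27, for *Olfr78* (1421507_at) in replicate 2 of lipofectamine with GFP exosomes, to 10.25, for *Olfr156* in replicate 2 of antagomir-21 with miR-21 exosomes. Their median was 6.94, their quartiles were 4.98 and 8.30, and their 95th percentile was 9.35. The values were not gathered around one level: between 4.5 and 5 lay 9.09% of them, between 6.5 and 7 5.30%, and between 7.5 and 8 12.1%. With a limit of 7, set after the values were seen, 259 values (49.1%) were higher. All 44 probe sets had arrays on both sides of it, with 1 to 10 arrays above, and in 38 of them the highest array exceeded the lowest by over 4 log2 units. No receptor was above its array's median on all 12 arrays, and 5 were below it on all: *Olfr672*, *Olfr2*, *Olfr690*, *Olfr67* and *Olfr64*. By array, 57.6% to 75.4% of all probe sets lay above 7. The counts of probe sets by side or range were made for the receptors alone, so no share over all probe sets stands beside them.

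**Figure D3:**
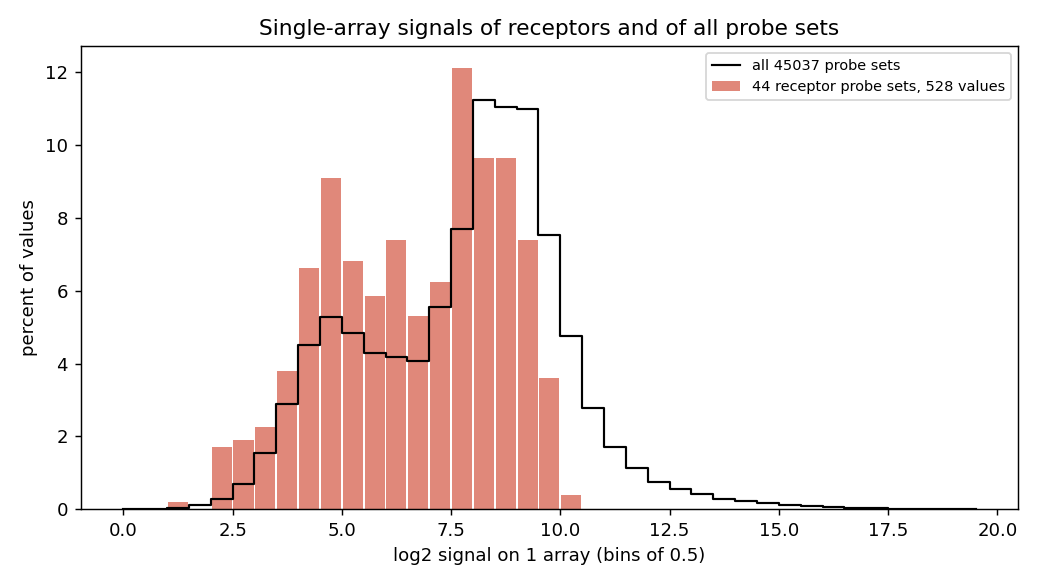
Share of single-array values (y axis, percent) by log2 signal in bins of 0.5 (x axis), red bars for the 528 receptor values and a black line for all 45037 probe sets on 12 arrays. Both have a lower and an upper peak, and the receptors end in the bin from 10 to 10.5 whereas all probe sets reach beyond 19.

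These values give a yardstick for dim genes. Of all values on the 12 arrays, 10.4% lay above the highest receptor value. By mean signal, 3760 probe sets (8.35%) did so, and 3.81% of probe sets did so on every array. Receptor means over 12 arrays reached no higher than 8.55. A mean at or below 9.35, the 95th percentile of single receptor values, was found for 84.1% of probe sets. A signal under that height was reached by receptor probe sets on single arrays, whatever the gene it was read for.

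Arrays differed in how the receptors were read. The median of the 44 was 7.10 and 7.11 on the arrays of lipofectamine with GFP exosomes, 7.18 and 6.51 on those of scramble with GFP exosomes, and 7.29 and 7.27 on those of antagomir-21 with GFP exosomes. With miR-21 exosomes it was 6.21 and 7.78 after lipofectamine, 8.05 and 5.63 after scramble, and 6.10 and 7.19 after antagomir-21. The highest and the lowest of the 12 medians were thus the replicates of 1 group, scramble with miR-21 exosomes. The SD of the receptors' array medians was 0.706, against 0.208 for the medians of all probe sets, which ran from 7.92 to 8.58. The first are medians of 44 dim probe sets and the second of 45037, so these SDs are not like for like. The lower quartile of all probe sets ran from 5.28 to 7.04, on replicates 1 and 2 of antagomir-21 with miR-21 exosomes. After quantile normalization the receptors' medians still ran from 6.10 to 7.50, and after median centring from 5.66 to 7.65.

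On 11 of the 12 arrays the histogram of all probe sets had a dip between a lower and an upper peak, at 5.55 to 7.55. Between 14 and 28 receptors lay below the dip, and 18.4% to 45.9% of all probe sets. The exception was replicate 1 of lipofectamine with GFP exosomes, which had 1 peak. This shape was looked for after the values were seen. Across the 12 arrays the receptors' median had a Pearson's r of 0.46 with the array's lower quartile (permutation p = 0.129, adjusted p = 0.193, Spearman's rho 0.23), of 0.48 with its median (permutation p = 0.119, adjusted p = 0.193, rho 0.27) and of 0.15 with its upper quartile (permutation p = 0.639). Without the pair of arrays farthest from the middle on the x axis, the first 2 values of r were 0.37 and 0.20. None of these 3 relations passed the test.

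**Figure D4:**
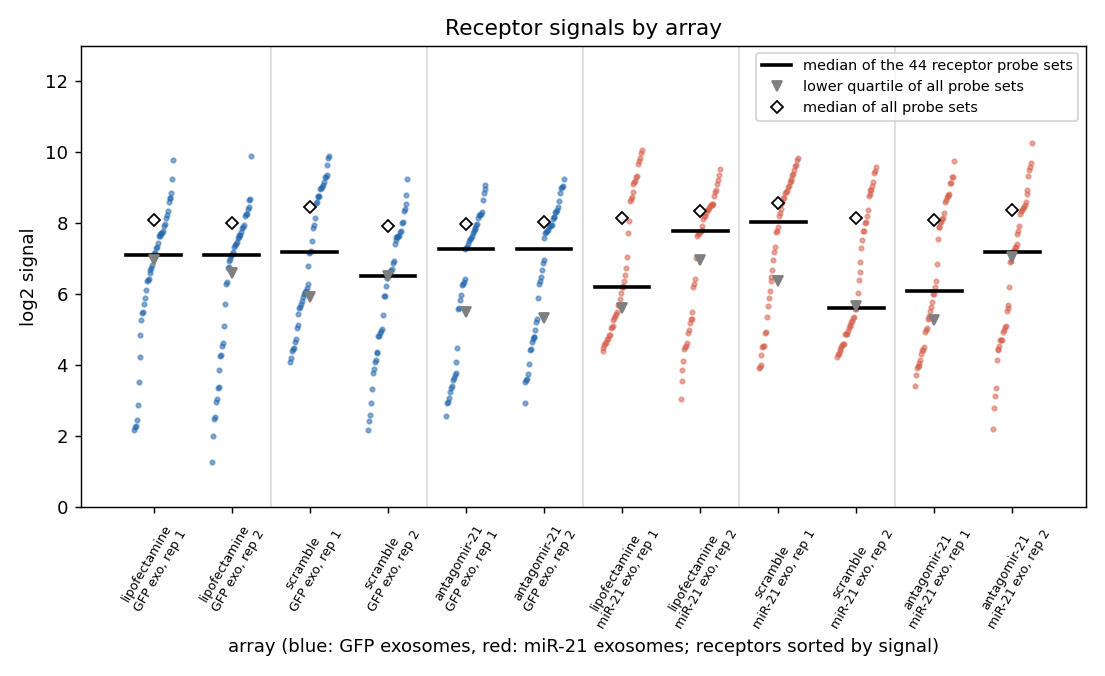
Log2 signal (y axis) of the 44 receptor probe sets on each of the 12 arrays (x axis, points sorted by signal), with their median as a bar, and the lower quartile and median of all probe sets as a triangle and a diamond. The bars range from 5.63 to 8.05, both within scramble with miR-21 exosomes. The diamonds stay between 7.92 and 8.58, and the triangles range from 5.28 to 7.04.

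Arrays of the same group differed as much as arrays of different groups. The median absolute difference of a receptor between the 2 arrays of a group was 1.63 log2 units (3.10-fold, 264 differences), and between arrays of different groups 1.66 (3.15-fold, 2640 differences over 60 pairs of arrays). Differences over 2 log2 units made up 43.9% and 42.3%, and those over 4 made up 11% and 11.4%. For all probe sets the medians were 1.22 and 1.22, with 33.7% and 33.2% of differences over 2 and 9.96% and 9.63% over 4. By group, the receptors' median difference between replicates was 0.76 for lipofectamine with GFP exosomes, 2.19 for scramble with GFP exosomes, 1.82 for antagomir-21 with GFP exosomes, 1.82 for lipofectamine with miR-21 exosomes, 2.06 for scramble with miR-21 exosomes and 1.43 for antagomir-21 with miR-21 exosomes. The largest within a group was for *Olfr70*, which read 9.68 and 3.05 on the 2 arrays of lipofectamine with miR-21 exosomes.

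Probe sets of the same gene did not follow each other. *Olfr78*, which responds to short-chain fatty acids, had 4 probe sets with means of 5.39 (1421507_at), 5.96 (1453535_at), 6.86 (1440009_at) and 7.16 (1421506_at). On the 2 arrays of antagomir-21 with GFP exosomes these read 2.97 and 9.0, 7.86 and 6.89, 8.15 and 8.17, and 3.07 and 3.54 in the same order. *Olfr66* had means of 5.71 and 6.08, and *Olfr701* of 6.96 and 7.77. Over the 12 arrays the 8 pairs of probe sets of one gene had Pearson's r of −0.19 to 0.11 and Spearman's rho of −0.38 to 0.17, with a lowest adjusted permutation p of 0.911 and 0.993. Without the pair of arrays farthest from the middle, r ran from −0.65 to 0.40. Over all 946 pairs of receptor probe sets, which share the same 12 arrays, the median r was 0.04 (−0.84 to 0.81) and 53.3% were above 0.

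The design implies 7 comparisons of 2 arrays with 2, in which the antagomir, the exosomes' cargo and the transfected oligonucleotide are each set against their control. They share groups, so their counts are not independent. All 45037 probe sets were fitted together with limma, and a member is counted where limma's p before adjustment was under 0.05, the threshold given in the methods. For antagomir-21 against scramble, 4 receptor probe sets passed with GFP exosomes (5.84% of all probe sets did) and 2 with miR-21 exosomes (5.39%). For miR-21 against GFP exosomes, 3 passed after lipofectamine (3.88%), 3 after scramble (5.54%) and 3 after antagomir-21 (6.11%). For scramble against lipofectamine, 4 passed with GFP exosomes (2.58%) and 5 with miR-21 exosomes (5.55%). That made 24 of 308 tests, or 7.79%, against 4.98% over all probe sets and comparisons. After quantile normalization 18 of the 308 passed (2.76% to 6.36% of all probe sets by comparison), and after median centring 24 (2.72% to 5.77%).

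The 24 passing tests came from 10 probe sets, since 9 of these passed in more than 1 comparison, and 34 passed in none. *Olfr49* passed in 4, *Olfr65*, *Olfr1264* and *Olfr78* (1453535_at) in 3, *Olfr78* (1421506_at), *Olfr15*, *Olfr315*, *Olfr112* and *Olfr2* in 2, and *Olfr156* in 1. In most of these a single group stood apart and entered several comparisons.

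After Benjamini-Hochberg adjustment over all probe sets, limma called 0 receptors in each of the 7 comparisons, and 0% of all probe sets. An unpaired t-test was also run, which the methods list for 2 groups in general but do not name for the arrays. It called 0 receptors and 1 probe set of all after adjustment. Before it, that test passed 21 of the 308 receptor tests, and by comparison 4.18% to 6.26% of all probe sets. The smallest adjusted p of a receptor was 0.547, for *Olfr78* (1421506_at), in the antagomir-21 groups. The replicates read 8.67 and 9.33 with miR-21 exosomes and 3.07 and 3.54 with GFP exosomes, a difference of 5.69 log2 units (SE 1.52). The groups did not overlap. The other 3 probe sets of the gene were not at an unadjusted p under 0.05 in that comparison.

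*Olfr65*, which lies near the beta-globin genes, read 9.37 and 9.60 in scramble with miR-21 exosomes, the highest of its values. It read 4.40 and 4.54 in lipofectamine with miR-21 exosomes, a difference of 5.01 (SE 1.22, limma's adjusted p = 0.763). In antagomir-21 with miR-21 exosomes it read 5.77 and 3.35, a difference of −4.92 from scramble (SE 1.22, limma's adjusted p = 0.715). Its 2 arrays of scramble with miR-21 exosomes were close together although that group's arrays were the farthest apart in their receptor medians.

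*Olfr49* read 8.89 and 7.02 in lipofectamine with miR-21 exosomes against 2.47 and 3.35 with GFP exosomes, a difference of 5.05 (SE 1.21, limma's adjusted p = 1.0). In scramble the order was turned: 4.28 and 4.89 with miR-21 exosomes and 6.0 and 6.73 with GFP exosomes. *Olfr2*, the receptor described in vascular macrophages, read 2.25 and 2.0 in lipofectamine with GFP exosomes, below its 7.19 and 5.94 in scramble with GFP exosomes, with a difference of 4.44 (SE 1.80, limma's adjusted p = 1.0). It read 2.58 and 7.92 in antagomir-21 with GFP exosomes, so that the arrays of 1 group covered nearly its whole range.

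*Olfr1264* read 4.5 and 4.42 in antagomir-21 with GFP exosomes, below 9.29 and 6.88 in scramble and 8.04 and 7.42 in antagomir-21 with miR-21 exosomes. *Olfr78* (1453535_at) read 5.12 and 2.44 in scramble with GFP exosomes and 7.86 and 6.89 in antagomir-21 with GFP exosomes, opposite in direction to the other probe set of the gene that passed in that comparison, 1421506_at, with 5.93 and 7.42 against 3.07 and 3.54. The gene was thus read as higher by one of its probe sets and as lower by another in the same 4 RNA samples.

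*Olfr15* read 3.72 and 6.95 in antagomir-21 with miR-21 exosomes and 8.85 and 8.83 in scramble with miR-21 exosomes. *Olfr315* read 4.74 and 6.20 in lipofectamine with miR-21 exosomes, where the other 10 arrays lay between 7.21 and 9.17. *Olfr112* read 4.5 and 4.16 in scramble with GFP exosomes, against 7.18 and 7.66 in lipofectamine with GFP exosomes and 7.35 and 8.20 in scramble with miR-21 exosomes. All of these values lay within the range of 1.27 to 10.25 that single receptor values covered.

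**Figure D5:**
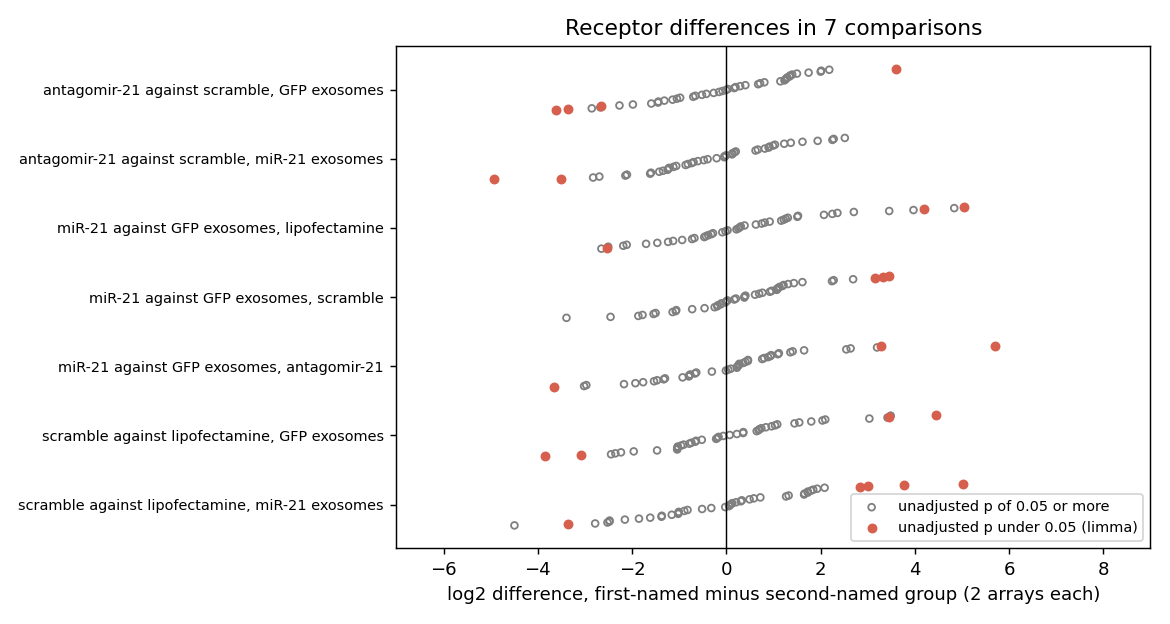
Difference of group means (x axis, log2, first-named minus second-named group, 2 arrays each) of the 44 receptors in 7 comparisons (y axis), filled red where limma's unadjusted p was under 0.05. Differences run from −4.92 to 5.69 and lie on both sides of 0 in every comparison, with 24 filled points in all.

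Large differences of receptor means were common, and the counts that follow take in those that passed the test as well as those that did not. More than 4-fold differences were found for 10 of the 44 in antagomir-21 against scramble with GFP exosomes (21.8% of all probe sets) and 9 with miR-21 exosomes (20.4%). For miR-21 against GFP exosomes the counts were 14 after lipofectamine (18.2%), 8 after scramble (20.7%) and 9 after antagomir-21 (21.3%). For scramble against lipofectamine they were 12 with GFP exosomes (14.2%) and 12 with miR-21 exosomes (21.1%). The SE of a receptor's difference had a median of 1.58 log2 units (1.04 to 2.47), so that its 95% interval reached a median of 3.46 to each side. The smallest difference that passed was 2.53 and the largest that did not was 4.84. By comparison the median absolute difference was 0.93 to 1.37 for the receptors and 0.73 to 0.98 for all probe sets.

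Directions were divided. Between 18 and 26 of the 44 receptors were higher in the first-named group of a comparison, and their median difference lay between −0.30 and 0.38. Over all probe sets the largest shift of the median was −0.13, in the GFP exosome groups for antagomir-21 against scramble, where the receptors' median was 0.01.

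Most probe sets that passed the unadjusted threshold had both group means at or below 9.35, the 95th percentile of single receptor values. Receptor means over 12 arrays reached only 8.55, so this limit takes in probe sets brighter than any receptor mean. In the 7 comparisons, 81.2% to 97.3% of all probe sets at limma's unadjusted p under 0.05 lay at or below 9.35 in both groups. So did 73.7% to 77.7% of all probe sets tested. Among probe sets at or below 9.35 and among those above it, the shares that passed for antagomir-21 against scramble were 7.10% and 1.76% with GFP exosomes and 6.17% and 2.97% with miR-21 exosomes. For miR-21 against GFP exosomes they were 4.83% and 1.22% after lipofectamine, 6.25% and 3.44% after scramble, and 7.45% and 1.46% after antagomir-21. For scramble against lipofectamine they were 3.32% and 0.283% with GFP exosomes and 6.12% and 3.97% with miR-21 exosomes, the closest pair of the 7.

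Most of the cells' own markers had means above all single receptor values, by different margins. Of 10 macrophage genes, each read by its brightest probe set, 7 had a mean above 10.25, the highest single receptor value, among them *Lyz2* (lysozyme) at 16.94, *Csf1r* (the receptor for colony-stimulating factor) at 16.43, *Cd68* at 13.27 and *Adgre1* at 12.87. The means of *Mertk*, *Cd14* and *Fcgr1* were just over that limit, at 10.68, 10.75 and 10.77, and their lowest arrays read 9.87, 8.14 and 9.59, within the range of single receptor values. The other 3 were *Itgam*, *Gata6* and *Timd4*, with means of 8.47, 8.78 and 8.88. The highest receptor mean was 8.55, and single receptor values reached beyond all 3 of these means. With every probe set taken in, the 10 genes had 15, with means of 6.71 to 16.94 and a lower quartile of 8.83. Dimmer probe sets of macrophage genes thus lay within the range of the receptor means. The macrophage genes' average per array was 11.08 to 12.52, and 0 of 70 limma tests of them passed an unadjusted p under 0.05 (4.98% over all probe sets and comparisons, lowest adjusted p of the list 0.879).

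Genes that define olfactory sensory neurons had means within the range of the receptor means, with a higher median. Of 12 such genes, 8 had a probe set of 1 symbol in the annotation, and each was read by its brightest. The median of their means was 7.62, against 6.62 for the receptors with 1 probe set per gene. None had a mean above 10.25, and their average per array was 5.87 to 7.93. *Omp*, the marker of mature olfactory neurons, was at 7.81 ± 1.33 (SD, n = 12), *Gnal* at 8.03 ± 1.82 (SD, n = 12), *Adcy3* at 7.85 ± 1.21 (SD, n = 12) and the channel subunit *Cnga2* at 5.26 ± 2.57 (SD, n = 12). Of 56 tests 5 (8.93%, beside 4.98% over all probe sets, a share that takes in every probe set of a gene) passed an unadjusted p under 0.05. All 5 were higher in the first-named group, from *Cnga4*, *Gng13* and, in more than 1 comparison, *Cngb1*. The lowest adjusted p by limma was 0.766. Of 13 genes of receptor choice and signalling, most of them also used in other tissues, 4 lay above 10.25: *Gnas* at 13.41, *Ric8a* at 12.57, *Ebf1*, also a B cell factor, at 10.69 and *Kdm1a* at 10.48. *Lhx2*, a factor of receptor choice, was at 6.07. In that list 4 of 91 tests (4.40%) passed, 3 as higher and 1 as lower, from *Ldb1* and *Slc24a4*.

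Other cell types that the cultures or the exosomes could bring were read in the same way. Of 4 B cell genes, *Ms4a1* stood at 12.41 and the other 3 below 10.25. None of 4 T and NK cell genes had a mean above 10.25, with *Cd3e* at 8.06 and an average per array of 3.90 to 8.61. Of 13 genes of sensory neurons of the dorsal root ganglion only *Pou4f1* did, at 10.57, whereas *Scn10a* was at 5.51 and *Uchl1* at 7.33. At an unadjusted p under 0.05, limma passed 2 of 28 tests of B cell genes (7.14%), both as higher in the first-named group. It passed 4 of 28 tests of T and NK cell genes (14.3%), 2 as higher and 2 as lower, 3 of them from *Cd247*. It passed 7 of 91 tests of dorsal root ganglion genes (7.69%), 6 as higher and 1 as lower, with a lowest adjusted p of 0.547. The share over all probe sets was 4.98%. The part of such cells in any receptor value was not tested.

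Other gene families of distant tissues resembled the olfactory receptors in level and spread. The 34 probe sets of vomeronasal receptors had a median mean of 6.94 and a median SD of 1.77, the 6 of taste receptors 6.72 and 1.93, the 43 of keratin-associated proteins 6.24 and 1.75, and the 24 of gut and epididymal defensins 6.90 and 1.73. The single trace amine receptor was at 6.53 with an SD of 1.80. In these families 1 vomeronasal gene, *Vmn2r84* at 10.67, and 1 keratin-associated gene, *Krtap5-1* at 11.34, had means above 10.25, which no olfactory receptor had. For the tests of these families each gene was read by its brightest probe set. At limma's unadjusted p under 0.05, 4.15% of 217 tests of vomeronasal genes passed, 7.14% of 42 of taste receptors, 6.39% of 266 of keratin-associated genes and 9.94% of 161 of defensins. The 7.79% of the olfactory receptors and the 4.98% of all probe sets took in every probe set, so these shares are not like for like. The same holds for the shares of the cell type and signalling lists above.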

How the data were processed

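Total RNA of PMs was amplified (NuGEN kits by the labels, a WT Pico kit by the methods) and read on 12 Affymetrix mouse arrays. The authors deposited 1 log2 signal per probe set and array. The methods name RMA with quantile normalization, yet the deposited distributions differ between arrays. Their mean on the linear scale, with 2% trimmed at each end, was 496 to 499 on every array, but which software produced them is not stated in the sources used. The table gives no background level of its own, and the number of arrays limits the precision.

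Groups and replicates came from the labels, 2 arrays per group, where the methods state triplicates. Probe sets were named from the platform annotation: 34945 of 45037 had 1 symbol, 932 several and 9160 were not listed. Genes were matched by ID to the RefSeq table of GRCm38.p6, and only the promoter windows carry coordinates, which are those of RefSeq and not of the arrays, for which no build is named. All 45037 probe sets were fitted on 6 group means with limma 3.58.1 in R 4.3.3 (6 residual degrees of freedom, 2-sided, Benjamini-Hochberg adjustment over all probe sets). Other values came from Python 3.11.15 and scipy 1.17.1, with 100000 permutations for a correlation. The procedure was tested on simulated data. The members and the gene lists were chosen with earlier results of these data known. The text names the 8 brightest and 6 dimmest receptors, the 5 most and 3 least variable, up to 2 per direction and comparison by unadjusted p, receptors with several probe sets or known roles outside the nose, and up to 4 genes of another list (the 6 dimmest macrophage genes, the neighbours of *Olfr1508* and the receptors below their array's median throughout were named after their values were seen). Alternatives were quantile normalization, median centring, a prior that follows mean signal, a replicate block, an unpaired t-test, 1 probe set per gene, only probe sets above the median signal and leaving out each array.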

Additional observations from a re-analysis of the deposited data

How the results depend on the processing

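The level and spread of the receptors kept their values: over quantile normalization, median centring and 1 probe set per gene the median signal was 6.5 to 6.62, the median SD over arrays 1.71 to 1.73 and the median SD within groups 1.67 to 1.77, and without each array in turn they were 6.49 to 6.63, 1.70 to 1.77 and 1.66 to 1.83. No receptor passed an adjusted p under 0.05 in any of the 7 comparisons under the alternatives that kept every array. Of all probe sets 1 did, by the unpaired t-test, and 0 under each of the others. Counts of receptors at an unadjusted p under 0.05 were small and moved: 33 of 49 alternative counts that kept every array were within 1.5 times the main one. Over the 7 comparisons the 24 became 17 with a prior that follows mean signal (1.71% to 4.78% of all probe sets by comparison). The replicate block gave 22 (2.64% to 6.06%). With GFP exosomes, for antagomir-21 against scramble, the count of 4 became 1 with quantile normalization, 2 with median centring, 1 with a prior that follows mean signal, 2 with the replicate block and 0 among probe sets above the median signal, which include 10 receptors. With miR-21 exosomes, 2 became 1 by the unpaired t-test (5.04%) and 1 above the median signal (4.24%). For miR-21 against GFP exosomes after lipofectamine, 3 became 6 by the unpaired t-test (5.14%) and 1 above the median signal (2.16%). After scramble, 3 became 0 with the prior that follows mean signal (4.35%) and 0 above the median signal (4.61%). After antagomir-21, 3 became 1 above the median signal (3.79%). For scramble against lipofectamine with GFP exosomes, 4 became 0 with quantile normalization (2.76%) and 0 above the median signal (0.964%). With miR-21 exosomes, 5 became 2 by the unpaired t-test (4.68%) and 2 above the median signal (4.73%). The cause was not tested, beyond the fewer receptors tested above the median signal.

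Leaving out 1 array gave 1 to 4 for antagomir-21 against scramble in the GFP exosome groups (1 without scramble replicate 1, 2 without antagomir-21 replicate 1 or either lipofectamine array of GFP exosomes) and 2 to 6 with miR-21 exosomes (6 without scramble replicate 1, 4 without antagomir-21 replicate 2). For miR-21 against GFP exosomes it gave 1 to 6 after lipofectamine (1 without GFP replicate 2, 6 without miR-21 replicate 2, 5 without either antagomir-21 array of miR-21 exosomes), 1 to 3 after scramble (1 without GFP replicate 2) and 1 to 4 after antagomir-21 (1 without GFP replicate 1). For scramble against lipofectamine it gave 1 to 5 with GFP exosomes (1 without either lipofectamine array, 2 without scramble replicate 1) and 2 to 8 with miR-21 exosomes (2 without lipofectamine replicate 1, 8 without replicate 2). The share of all probe sets that passed moved too: in these fits it was 10.1% where the count was 6 after lipofectamine and 2.02% where it was 1 (3.88% with all arrays), and 9.49% where it was 8 and 5.18% where it was 2 with miR-21 exosomes (5.55% with all arrays). A group left with 1 array was assumed to vary like the others.

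Same-numbered arrays had no strong deviation in common: their deviations from group means had correlations of −0.17 to 0.19 over 15 pairs of groups. Over the receptors alone these were −0.32 to 0.28. Such values cannot tell whether same-numbered arrays came from one culture or animal. With the replicate block the 7 counts were 2, 2, 3, 3, 4, 4 and 4 in the order above. The shares of all probe sets were 5.70%, 5.14%, 3.95%, 5.35%, 6.06%, 2.64% and 5.31% in the same order.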
